A study of Mus musculus with 83 samples.

Results

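A total of 630 genes were at 5 RPKM or more in interscapular brown adipose tissue and had no entry in the expression tables of cultured brown adipocytes. They were found by matching the RefSeq transcripts of the tissue table to gene symbols, taking the highest RPKM of each gene, and keeping genes whose current or older symbol was in none of the 4 culture tables. RPKM are reads scaled to transcript length and to the mapped reads of the library. The tissue table gave a value for 22463 genes, of which 5896 were at 5 RPKM or more, so the 630 were 10.7% of the genes past that level. These genes were thus chosen by their tissue level and their lack of a culture entry, and both are given as a description. A missing entry is not a measured value of 0 and does not show that a gene was silent in culture.

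The series asked how the histone methyltransferases MLL3 and MLL4 and the acetyltransferases CBP and p300 act on enhancers during brown adipogenesis. Its RNA came from 1 library of brown adipose tissue of C57BL/6J mice aged 16 weeks and from 4 libraries of cultured cells, 1 at each time. The cultured cells were brown preadipocytes of newborn C57BL/6J mice that carried floxed Pparg alleles (Pparg-flox/flox) and had been immortalized with SV40 large T antigen, a viral oncoprotein. They were collected while proliferating (day -3), at confluence before induction (day 0), as immature adipocytes (day 2) and as mature adipocytes (day 7), and induction used insulin, T3, IBMX, dexamethasone and indomethacin. The labels give no drug or Cre for these RNA samples, and do not say whether tissue of several mice was pooled. There were no replicates, so no test between tissue and culture was possible. The culture values are FPKM and the tissue values RPKM, made by different processing, so they are set side by side and no fold is given between them.

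Brown fat is a tissue in which adipocytes packed with mitochondria burn fatty acids to make heat, uncoupled from ATP synthesis by the protein UCP1. Noradrenaline from sympathetic nerves acts on beta-adrenergic receptors, which raise cyclic AMP through the stimulatory G protein and start the release of fatty acids from lipid droplets. The intact depot also holds a dense capillary bed, blood, nerve fibres, macrophages and stromal cells, and it lies against skeletal muscle. The cell make-up of the culture was not examined here.

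The label of the tissue matched its markers. Ucp1 was at 1015 RPKM, Cidea, a lipid droplet protein of brown fat, at 1164, Cox8b, a respiratory chain subunit, at 956, and Adipoq, the hormone adiponectin, at 554. Of the 13 markers used for this check 12 were at 5 RPKM or more, the exception being the transcription factor Prdm16 at 2.95. Dio2 and Ppargc1a, at 17.9 and 15.2 RPKM, belonged to the 630 genes. In bulk RNA, fewer cells of a type and less RNA per cell cannot be told apart. By an estimate from low values, a single read on 1 kb added 0.187 RPKM, so that 5 RPKM on 1 kb corresponds to about 26.7 reads and 3 reads to 0.561 RPKM.

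Gene type separated the 630 genes most clearly. Among protein-coding genes at 5 RPKM or more, 531 of 5794 (9.16%) had no culture entry, whereas among all other gene types 99 of 102 (97.1%) had none. Of 48 long noncoding RNA genes 46 were missing, as were 23 of 23 microRNA genes, 15 of 16 transcribed pseudogenes and 10 of 10 small nucleolar RNA genes. The 11144 symbols of the culture tables included 8 that matched a gene of another type than protein-coding. The smallest maximum over the 4 culture libraries was 1.00 FPKM, so every listed gene reached about 1 FPKM at some time, and a gene could have been missing for its level, for its type or for another reason that the sources used here do not give.

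Missing protein-coding genes were found at every tissue level. They made up 9.67% of those from 5 to 10 RPKM, 10.2% of those from 10 to 20, 7.96% of those from 20 to 50, 6.52% of those from 50 to 100 and 6.21%, or 18 of 290, of those at 100 or more. Their median was 10.7 RPKM, beside 12 for listed protein-coding genes. Overlap with another annotated gene was about as frequent in missing as in listed protein-coding genes, at 25.6% and 25.2%, while 66.9% and 77.4% had a single transcript in the tissue table. Just inside the limit lay Dand5 (5.036 RPKM), 8430429K09Rik (5.033), Rcc1l (5.018), Gm6787 (5.014) and Lmod3 (5.003), and just outside it Esrrg (4.958), Gm4285 (4.938), Tfeb (4.935), Usp39 (4.931) and Fxyd6 (4.903).

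Lists of cell type markers and of functions differed widely in the share of their genes without a culture entry. The highest shares were in lists of cell types other than the adipocyte, and, among lists of protein-coding functions, in ribosome biogenesis (65.0%) and in chaperones and heat shock (36.7%). Core fuel metabolism had almost none. None of 35 genes of fatty acid oxidation at 5 RPKM or more was missing, nor any of 30 citric acid cycle genes, 27 lipogenesis genes or 19 glycolysis genes, and Ndufs6, a complex I subunit at 90.5 RPKM, was the only missing gene among 74 of the respiratory chain and ATP synthase. The transcription and chromatin factors that the series studies were all listed, 33 of 33 at 5 RPKM or more.

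**Figure D1:**
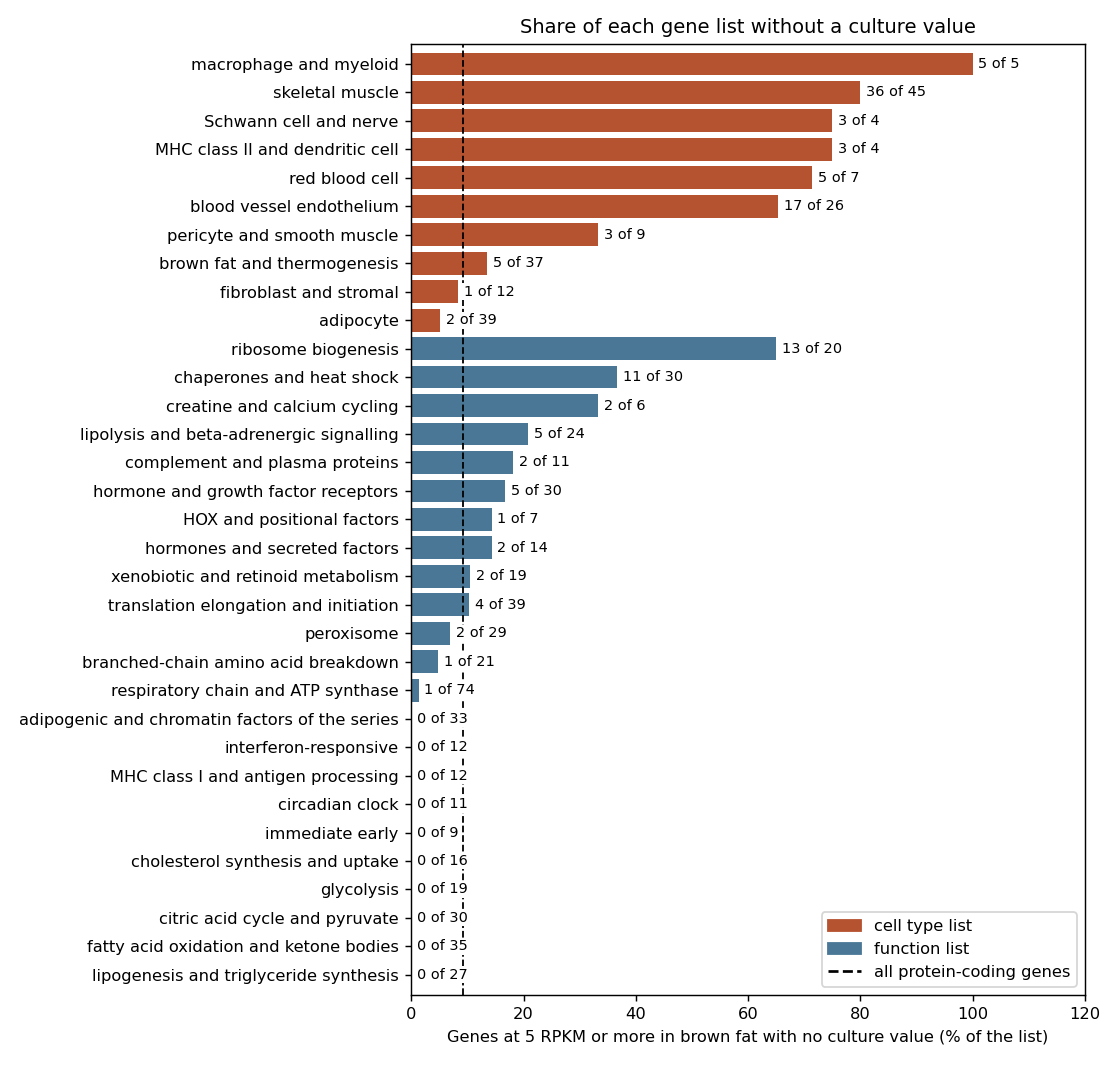
Share of the genes of each list at 5 RPKM or more in brown adipose tissue that had no entry in the culture tables (x axis, percent), for cell type lists in orange and function lists in blue, with the counts beside each bar. The dashed line is the 9.16% of all protein-coding genes. Macrophage, skeletal muscle, nerve, MHC class II, red blood cell and endothelial lists reach from 65.4% to 100% and core metabolic lists lie at or near 0. Lists with fewer than 4 genes at 5 RPKM or more and the long noncoding RNA list are not drawn.

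Skeletal muscle genes formed the biggest of these groups. Of 45 muscle list genes at 5 RPKM or more, 36 had no culture entry, with a median of 23.1 RPKM and a range from 5.39 to 237. Ckm, the muscle creatine kinase, was at 237 RPKM, and Atp2a1, the calcium pump of the fast-fibre sarcoplasmic reticulum, at 205. Among the regulators of the thin filament, the fast troponin subunits Tnnt3, Tnni2 and Tnnc2 were at 198, 173 and 124 RPKM. The slow troponin subunits Tnnt1 and Tnni1 were at 45.4 and 22.9 RPKM. The fast subunits had the higher values, and both fibre types were represented.

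The myosin heavy chains were likewise led by a fast form, although the slow form lay among the others. Myh4, the myosin of the fastest fibres, was at 156 RPKM, Myh1 at 43.7, Myh7, the slow and cardiac myosin, at 38.3, and Myh2, another fast form, at 17.1. Pvalb, a calcium buffer of fast fibres, was at 142 RPKM. Tcap, which caps the giant protein titin at the Z-disc, was at 79.9 RPKM, and Ttn, titin itself, at 11.4. Myl2 and Myl3, light chains of ventricular and slow muscle, were at 62.3 and 29.1 RPKM. Sln, an inhibitor of the calcium pump, was the lowest at 5.39 RPKM.

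A further 30 genes of muscle fibres were assigned by hand after their values were seen. They ranged from Art3, a surface ADP-ribosyltransferase family member at 54.2 RPKM, through Apobec2, a muscle deaminase family member at 38.8, and Ckmt2, the sarcomeric mitochondrial creatine kinase at 18.5, to Lmod3. Mhrt, a noncoding RNA at 30.5 RPKM, overlaps Myh7 at 38.3, and reads of the pair cannot be told apart because strand use in the counting is not stated. Chromosomal neighbourhood joins 3 of the myosin genes, whose promoters are shown because all 3 lacked a culture entry. The windows are from RefSeq, build GRCm38.p6, and run from 250 bases before to 50 bases after the annotated start on the plus strand: Myh4 at chr11:67237562-67237861, Myh1 at chr11:67199852-67200151 and Myh2 at chr11:67170777-67171076. Capitals mark the letters TATAAA, the TATA box motif, on either strand.
Myh4: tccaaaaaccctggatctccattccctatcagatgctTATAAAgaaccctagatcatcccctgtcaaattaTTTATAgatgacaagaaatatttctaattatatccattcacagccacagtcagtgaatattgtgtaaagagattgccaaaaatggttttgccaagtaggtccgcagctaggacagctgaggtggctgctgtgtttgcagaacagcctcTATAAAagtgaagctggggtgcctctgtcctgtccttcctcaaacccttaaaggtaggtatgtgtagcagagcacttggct
Myh1: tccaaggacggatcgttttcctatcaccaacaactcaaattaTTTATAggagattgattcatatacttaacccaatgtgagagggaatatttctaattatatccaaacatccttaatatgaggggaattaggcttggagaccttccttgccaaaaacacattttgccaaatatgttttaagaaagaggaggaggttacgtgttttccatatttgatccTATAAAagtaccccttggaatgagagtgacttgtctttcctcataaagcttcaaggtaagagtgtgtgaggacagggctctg
Myh2: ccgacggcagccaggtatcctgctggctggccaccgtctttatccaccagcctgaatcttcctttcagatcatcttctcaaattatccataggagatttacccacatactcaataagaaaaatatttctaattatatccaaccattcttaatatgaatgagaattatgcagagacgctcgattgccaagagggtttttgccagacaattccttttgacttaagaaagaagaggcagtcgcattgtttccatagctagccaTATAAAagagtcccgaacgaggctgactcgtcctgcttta
Each of the 3 windows holds the motif at least once on the given strand. The letters TATAAA were in 18.0% of 61 windows of the muscle genes without a culture entry and in 12.7% of 567 windows of all genes without one. They were in 13.6% of 32851 windows of all genes and in 6.30% of the windows of listed genes at 5 RPKM or more. Sites bound by MEF2 factors of muscle have a core of CTA, then 4 bases that are A or T, then TAG. A looser pattern was searched, with any 4 bases in the middle. It was in 8.2%, or 5, of the muscle windows. In the other sets it was in 3.17%, 3.69% and 3.00%, in the same order, and its matches can hold a TATAAA. It was also in 7.41%, or 2, of 27 windows of ribosome assembly genes without a culture entry. Protein folding genes without an entry had it in 5.26%, or 1, of 19 windows, so a raised share was not particular to muscle. The 61 muscle windows belong to 51 genes, some of which count more than once. Both strands were searched. A match is a description of the letters and shows no binding.

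Some muscle genes were listed, and most of these were low in culture. Acta1, skeletal muscle actin, was at 534 RPKM in the tissue, and in culture at 6.19, 0.816, 0.272 and 1.14 FPKM in the order of the 4 times. Mylpf, a fast myosin light chain, was at 84.7 RPKM in the tissue and between 0.882 and 1.16 FPKM at the 4 times. Mb, myoglobin, an oxygen store also made by brown fat, was at 157 RPKM in the tissue and at 0.0475, 0.0755, 0.631 and 65.1 FPKM at days -3, 0, 2 and 7. Myoglobin was thus the listed gene of this set with a high day 7 value. Smpx counts as listed only because an older symbol of it is now the name of another gene. The part that adjoining muscle, vessels, blood or nerve had in the tissue values was not tested.

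Genes of the capillary wall came next. Of 26 blood vessel endothelium genes at 5 RPKM or more, 17 had no culture entry, with a median of 13.1 RPKM and a range from 5.07 to 51.4. Cdh5, the cadherin of endothelial junctions, was at 51.4 RPKM. Gpihbp1, which carries lipoprotein lipase to the capillary lumen, was at 46.0 RPKM, and Pecam1, an adhesion molecule of endothelium and platelets, at 34.4. Car4, a carbonic anhydrase anchored to the capillary surface, was at 23.7 RPKM. The junction proteins Esam and Cldn5 were at 21.8 and 19.8 RPKM. Lower were the angiopoietin receptor Tek (10.6) and its relative Tie1 (12.8), the transcription factor Sox18 (11.8) and the nitric oxide synthase Nos3 (5.94).

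Listed endothelial genes included the VEGF receptors. Kdr was at 28.4 RPKM in the tissue, and at 1.07, 1.88, 0.105 and 0.0668 FPKM at days -3, 0, 2 and 7. Flt1 was at 13.9 RPKM, and at 3.66, 0.869, 0.916 and 1.58 FPKM. Eng, a TGF-beta co-receptor also made by mesenchymal cells, was at 20.6 RPKM, and at 34.1, 31.7, 15.7 and 6.75 FPKM. Both VEGF receptors were lower at day 7 than at day -3 in these single libraries. The lymphatic endothelium list had no gene at 5 RPKM or more, its highest value being 2.02.

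Another 24 genes of the vessel wall were assigned after their values were seen. Cd300lg, a receptor of capillary endothelium, was at 37.6 RPKM, Rbp7, a retinol-binding protein of adipose endothelium, at 19.8, Pdgfb, the growth factor that recruits pericytes, at 7.37, and Aplnr, the apelin receptor, at 6.40. Of the pericyte and smooth muscle list 3 of 9 genes were missing (33.3%), beside 9.16% of all protein-coding genes. Rgs5, a G protein regulator used as a pericyte marker, was at 91.5 RPKM, and Kcnj8 and Abcc9, which form the potassium channel of pericytes, were at 10.6 and 7.72. The other 6 were listed, among them Acta2, smooth muscle actin, at 9.45 RPKM in the tissue and at 6017, 808, 260 and 223 FPKM in culture. The letters TATAAA were in 28.0% of 25 promoter windows of the endothelial and vessel wall genes, beside 12.7% for all genes without a culture entry. The MEF2 core was in none of the 25.

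Blood and immune cell genes were fewer and mostly lower. The hemoglobin chains were the exception, with Hbb-bs at 244 RPKM, Hbb-bt at 30.5, Hbb-b2 at 27.6, Hba-a1 at 88.0 and Hba-a2 at 87.3. These 5 were the missing genes among 7 of the red blood cell list (71.4%), beside 9.16% of all protein-coding genes, and the other 2 were listed. Chains of 1 type are nearly identical in sequence, so how the reads divide among the copies is uncertain. Among 48 macrophage and myeloid genes with a tissue value, 5 reached 5 RPKM, and all 5 were missing from culture: Lyz2, a lysozyme, at 19.6 RPKM, Retnla, a marker of alternatively activated macrophages, at 10.0, and the complement subunits C1qc, C1qa and C1qb at 12.1, 9.16 and 6.87. The antigen-presenting class II genes H2-Aa, H2-Ab1 and H2-Eb1, 3 of the 4 genes of their list at 5 RPKM or more (75%), were at 29.0, 19.4 and 14.4 RPKM. Their invariant chain Cd74 was listed, at 52.7 RPKM in the tissue and at 0.519, 3.21, 0.458 and 2.29 FPKM in culture.

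Markers of lymphocytes were all below 5 RPKM. The highest value on the T and NK cell list was 3.56 RPKM, on the B cell list 1.16 and on the mesothelium and epithelium list 1.4. Of 27 neutrophil, mast cell and eosinophil genes with a tissue value, 25 were below 5 RPKM. S100a9, a calcium-binding protein of neutrophils, was past it at 8.04 RPKM and had no culture entry, while the other gene past it was listed. Of 32 Schwann cell and nerve genes with a tissue value, 28 were below 5 RPKM. Among those past it, S100b, a glial calcium-binding protein, was at 11.7 RPKM and Mbp, a myelin protein, at 6.21. Of 12 fibroblast and stromal genes, Clec3b, the plasminogen-binding tetranectin, was the only gene without a culture entry, at 10.4 RPKM. This share of 8.33% is near the 9.16% of all protein-coding genes.

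**Figure D2:**
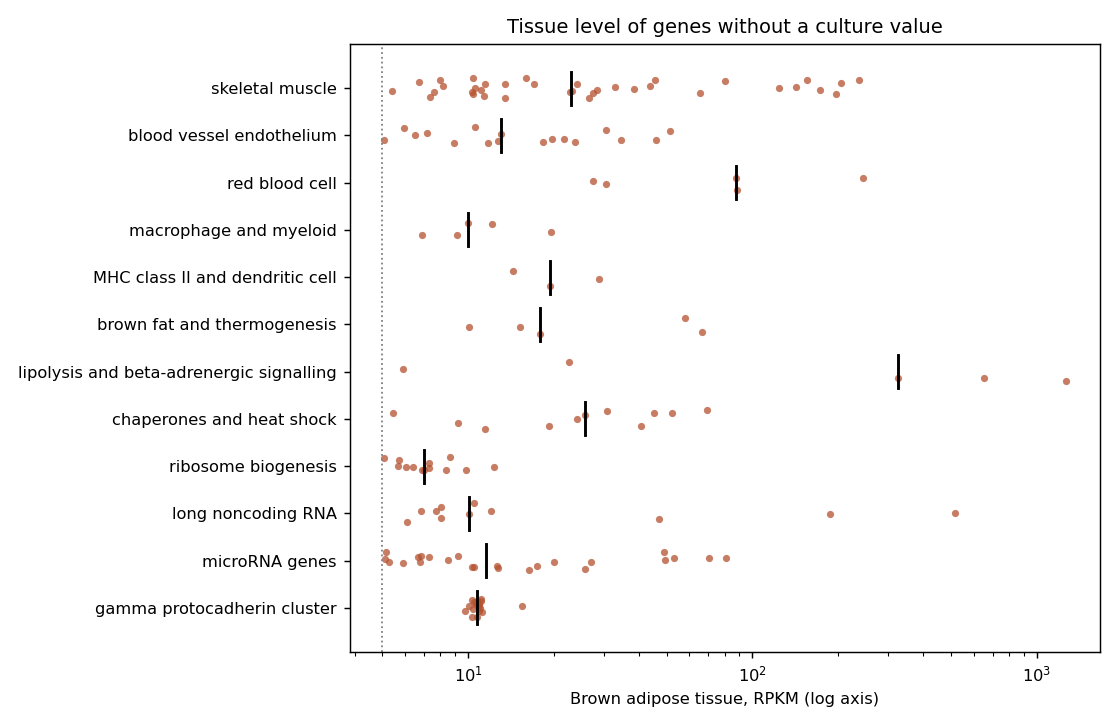
Tissue level of each gene without a culture entry (points, RPKM on a log axis) in 12 lists, with the median of each list as a bar and the limit of 5 RPKM as a dotted line. The points come from 1 library. Lipolysis genes reach 1272 RPKM and muscle genes 237, while ribosome biogenesis genes lie between 5.05 and 12.3 and gamma protocadherins between 9.75 and 15.5.

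Genes with known roles in brown adipocytes were also among the 630, and they included the highest values of all. Bulk RNA does not show which cells made them. Gnas, the stimulatory G protein alpha subunit that couples beta-adrenergic receptors to adenylyl cyclase, was at 1272 RPKM, the highest of the 630. This was the highest of its 9 transcripts, and the lowest was at 0. Pnpla2, adipose triglyceride lipase, which takes the first fatty acid off stored triglyceride, was at 652 RPKM. Ces1d and Ces1f, carboxylesterases with triglyceride hydrolase activity, were at 325 and 22.6 RPKM. Adrb1, a beta-adrenergic receptor, was at 5.93 RPKM. These 5 were the missing genes among 24 of lipolysis and beta-adrenergic signalling (20.8%), beside 9.16% of all protein-coding genes.

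Partners of these enzymes were listed and had culture values. Lipe, the hormone-sensitive lipase that acts after Pnpla2, was at 362 RPKM in the tissue and at 1.11, 3.07, 150 and 246 FPKM at days -3, 0, 2 and 7. Abhd5, the activator of Pnpla2, was at 18.4 RPKM and at 12.5, 15.8, 100.4 and 63.8 FPKM. G0s2, its inhibitor, was at 65.4 RPKM and at 0.166, 1.30, 92.0 and 358 FPKM. All 3 were higher at day 7 than at day -3 in these single libraries, and no such course is known for Pnpla2 from the tables.

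Of 37 brown fat and thermogenesis genes 5 (13.5%) had no culture entry, a share near the 9.16% of all protein-coding genes. Otop1, a proton channel, was at 66.8 RPKM, and Slc27a2, a fatty acid transporter and very-long-chain acyl-CoA synthetase, at 57.9. Dio2, the deiodinase that makes active thyroid hormone in brown fat, was at 17.9 RPKM, Ppargc1a, the coactivator of mitochondrial biogenesis PGC-1alpha, at 15.2, and Pm20d1, an enzyme that makes N-acyl amino acids, at 10.1. Ppargc1b, the relative of Ppargc1a, was listed, at 27.1 RPKM in the tissue and at 0.924, 0.761, 12.7 and 42.3 FPKM in culture. Of 39 general adipocyte genes 2 (5.13%) were missing, Pnpla2 and Gys2, a glycogen synthase at 15.8 RPKM.

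Receptors for hormones and growth factors had 5 of 30 genes missing (16.7%), beside 9.16% of all protein-coding genes. Ptger3, a prostaglandin E2 receptor that lowers cyclic AMP, was at 34.9 RPKM, Adra1a, an alpha-adrenergic receptor, at 13.2, Thrb, a thyroid hormone receptor, at 10.5 and Ednrb, an endothelin receptor, at 5.74. Adrb3, the main beta-adrenergic receptor of rodent adipocytes, was listed, at 51.6 RPKM in the tissue and at 0.107, 0.0893, 5.30 and 31.6 FPKM in culture. Other missing genes of fuel handling, some of them assigned after their values were seen, were Chpt1, which makes phosphatidylcholine, at 453 RPKM, Ucp3, a relative of UCP1, at 55.7, Slc25a44, a mitochondrial carrier of branched-chain amino acids, at 29.7 and Slc2a5, a fructose transporter, at 16.7. Atp2a2, the calcium pump of slow muscle, heart and many other cells, was at 65.9 RPKM. The secreted growth factors Bmp6 and Fgf1 were at 6.28 and 6.07 RPKM.

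The remaining large groups were housekeeping complexes, which every growing cell uses. In ribosome biogenesis 13 of 20 genes at 5 RPKM or more had no culture entry, with a median of 6.98 RPKM and a range from 5.05 to 12.3. At a minimum of 10 RPKM the count was 1 of 6 (16.7%), so the share rests on genes with low tissue values, and without genes that overlap another it was 7 of 10. Nhp2 and Dkc1, of the complex that makes pseudouridine in ribosomal RNA, were at 12.3 and 7.27 RPKM. Nop58, of the complex that methylates ribosomal RNA, was at 6.06 RPKM, and Pes1 and Bop1, partners in large subunit assembly, at 6.42 and 5.66. Another 17 ribosome assembly genes assigned afterwards ranged from 5.09 to 61.1, the highest being Nop10, a partner of Nhp2 and Dkc1.

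The other 7 genes of this list had culture values. Ncl, nucleolin, was at 11.8 RPKM in the tissue and at 237, 64.4, 99.7 and 44.9 FPKM at days -3, 0, 2 and 7. Npm1, nucleophosmin, was at 11.6 RPKM and at 271, 105, 116 and 84.6 FPKM. Mybbp1a, a nucleolar protein, was at 6.31 RPKM and at 235, 47.9, 102 and 40.3 FPKM. All 3 were highest in the proliferating culture. Promoters of this group are shown because the letters CACGTG, a motif bound by MYC and USF factors, were in 22.2%, or 6, of 27 windows of the ribosome assembly genes without a culture entry. They were in 7.15% of all windows, and in 10.4% both for listed genes at 5 RPKM or more and for all genes without a culture entry. The motif reads the same on both strands. The windows of Pes1 (chr11:3963725-3964024) and Tsr1 (chr11:74897830-74898129) are on the plus strand of GRCm38.p6, from RefSeq, with CACGTG in capitals.
Pes1: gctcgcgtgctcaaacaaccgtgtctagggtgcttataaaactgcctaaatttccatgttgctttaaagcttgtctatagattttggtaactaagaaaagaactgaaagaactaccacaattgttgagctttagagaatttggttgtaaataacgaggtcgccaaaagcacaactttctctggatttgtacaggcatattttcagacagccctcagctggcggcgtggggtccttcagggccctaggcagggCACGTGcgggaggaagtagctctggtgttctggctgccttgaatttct
Tsr1: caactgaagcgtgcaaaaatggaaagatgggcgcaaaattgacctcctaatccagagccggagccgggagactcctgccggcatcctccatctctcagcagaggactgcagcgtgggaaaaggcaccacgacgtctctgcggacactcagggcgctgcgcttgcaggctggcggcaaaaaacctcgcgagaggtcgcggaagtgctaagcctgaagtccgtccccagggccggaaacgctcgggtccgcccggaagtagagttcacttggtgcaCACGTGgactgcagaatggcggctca
Tsr1, a factor of small subunit maturation, was at 9.83 RPKM. Whether a factor binds these letters was not tested.

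Subunits of a single complex fell on both sides. The CCT chaperonin is a ring of 8 kinds of subunit that folds actin and tubulin, and 5 of the 8 were missing: Tcp1 at 45.1 RPKM, Cct5 at 40.6, Cct6a at 30.8, Cct2 at 25.7 and Cct8 at 24.1. The other subunits, Cct4, Cct7 and Cct3, were at 31.6, 27 and 21.7 RPKM in the tissue. Cct4 was at 349, 157, 145 and 129 FPKM at days -3, 0, 2 and 7, Cct7 at 258, 104, 128 and 90.5, and Cct3 at 327, 112, 132 and 58.6. The tissue levels of missing and listed subunits overlapped, and the listed subunits were above 50 FPKM in every culture library.

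Listed and missing subunits also stood side by side in 2 further machines, with lower culture values. Of 18 genes of the 19S cap, which feeds tagged proteins into the proteasome, 5 were missing: Psmd7 at 31.8 RPKM, Psmc4 at 29.7, Psmd6 at 29.0, Psmd2 at 24.9 and Psmc5 at 20.2. The 13 listed cap genes had a median of 41.3 FPKM at day 7. Psmd3, above that median, was at 31.9 RPKM and at 169, 98.5, 112 and 77.7 FPKM. Of 12 genes of the TOM pore and the small TIM chaperones, which bring proteins into mitochondria, 5 were missing, namely Tomm40, the pore itself, at 25.5 RPKM, Tomm70a at 23.2, Tomm5 at 19.4, Timm10 at 19.1 and Tomm20 at 6.30. The 7 listed genes had a median of 41.8 FPKM at day 7. The receptor Tomm22, above that median, was at 43.1 RPKM and at 93.0, 56.3, 84.6 and 89.3 FPKM. In all 3 complexes, which were chosen after values were seen, some subunits thus had a culture entry and others had none. The missing shares were 62.5% for CCT, 27.8% for the 19S cap and 41.7% for TOM and small TIM. Over all proteasome subunits 6 of 41 (14.6%) were missing, and over all protein-coding genes 9.16%.

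**Figure D3:**
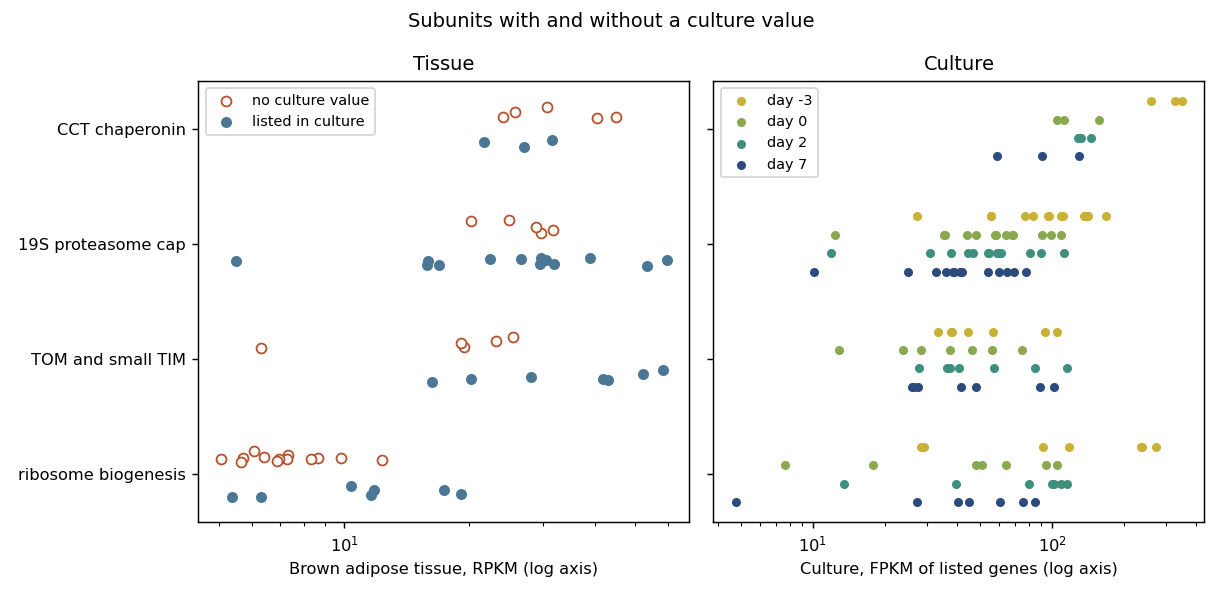
Subunits of 3 complexes and genes of ribosome biogenesis. The left panel gives the tissue level in RPKM (log axis), with open circles for genes without a culture entry and filled circles for listed genes; the right panel gives the FPKM (log axis) of the listed genes at days -3, 0, 2 and 7. Listed and missing subunits of the CCT ring and of the 19S cap overlap in the tissue, and the listed CCT genes lie between 58.6 FPKM (Cct3 at day 7) and 349 FPKM (Cct4 at day -3) in culture.

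The full chaperone and heat shock list had 11 of 30 genes missing, 5 of which are the CCT genes already described. The others included the mitochondrial folding partners Hspd1 and Hspe1 at 69.5 and 52.3 RPKM, which overlap each other in the annotation, and Hspa8, the constitutive HSP70, at 11.5. Hsp90ab1, a cytosolic HSP90, was listed, at 225 RPKM and at 1314, 796, 598 and 390 FPKM. Of genes assigned afterwards, all of them missing by construction, 33 act in splicing and messenger RNA handling, from Ybx3, a cold shock domain protein, at 35.7 RPKM to Rbmx, a nuclear RNA-binding protein, at 5.45. A further 20 are translation factors and transfer RNA enzymes, including Eif4a1, the initiation helicase, at 19.1 RPKM and Eif4e, the cap-binding protein, at 6.62. Over the whole list of translation elongation and initiation 4 of 39 genes (10.3%) were missing, and of cytosolic ribosomal proteins 5 of 42 (11.9%), both near the 9.16% of all protein-coding genes. Rpl41, a small ribosomal protein, was at 102.8 RPKM, and the pseudogene Rplp2-ps1, whose reads may be shared with its parent gene, at 99.

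The gamma protocadherins were missing nearly as a block. These adhesion molecules are made from a cluster in which many first exons are joined to shared last exons, so reads from the shared part count for several genes. In the tissue 20 of 21 such genes at 5 RPKM or more were missing, within a narrow range from 9.75 to 15.5 RPKM. The listed gene, Pcdhga11, was at 10.4 RPKM and at 77.6, 146, 137 and 80.2 FPKM in culture. The sources used here do not say how culture reads of the shared exons were divided, and the 20 tissue values are not independent. This cluster made up most of the 35 missing genes, of 166 (21.1%), on chromosome 18, beside 10.7% of all genes at 5 RPKM or more. All 3 Y-linked genes at 5 RPKM or more, Eif2s3y, Ddx3y and Uty, were also missing, at 30.2, 22.4 and 5.51 RPKM; the labels do not give the sex of the mice.

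Long noncoding RNAs followed the gene type. Malat1 and Neat1, nuclear RNAs of speckles and paraspeckles, were at 518 and 187 RPKM. Oip5os1 was at 47.1 RPKM, the small nucleolar RNA hosts Snhg6 and Snhg12 were at 10.1 and 8.02, and Lncbate10, described in mouse brown fat, was at 10.1. Several noncoding values lie inside or across a highly expressed gene. Gm15441 (106 RPKM) overlaps Txnip (290), Gm44502 (122) overlaps Cpt1b (173), and Acss2os (29.7) overlaps Acss2 (179). The same applies to the protein-coding genes Map3k15 (123), which overlaps Pdha1 (633), Fam151a (85.5), which overlaps Acot11 (119), and Sycp3 (65.5), a meiotic protein that overlaps Chpt1 (453). Without the strand these reads cannot be assigned to one of the overlapping genes.

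The microRNA genes rest on few reads. The 23 had from 2 to 32 estimated reads each, with a median of 5, and 12 had 5 or fewer, in a library made from polyadenylated RNA, which is not a measurement of mature microRNAs. In all, 21 of the 23 lie inside or overlap another gene, and where that gene has reads they cannot be told apart from those of the hairpin. Tigit and Cfap299, which overlap Mir568 (27 RPKM) and Mir703 (10.3 RPKM), were at 0 RPKM. Mir3064 was at 80.9 RPKM from 29 reads (exact 95% Poisson interval 54.2 to 116, counting error only) and overlaps Ddx5, an RNA helicase gene at 43.7 RPKM. Mir126a, whose mature form is abundant in endothelium, was at 5.12 RPKM from 2 reads (0.620 to 18.5) and overlaps the endothelial gene Egfl7 at 24.4 RPKM. The 10 small nucleolar RNA genes had 2 to 10 reads where whole reads were recovered, in 9 of them. The mature sequences of the 3 highest microRNA genes and of Mir126a are shown, from RefSeq (build GRCm38.p6), with the seed, bases 2 to 8, which pairs with targets, in capitals.
mmu-miR-3064-5p: uCUGGCUGuuguggugugcaaa
mmu-miR-3064-3p: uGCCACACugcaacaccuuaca
mmu-miR-5114: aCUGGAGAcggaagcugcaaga
mmu-miR-686: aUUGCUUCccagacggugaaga
mmu-miR-126a-3p: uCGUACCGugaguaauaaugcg
The mature mmu-miR-3064-5p lies at chr11:106782736-106782757 on the minus strand, and mmu-miR-126a-3p at chr2:26591402-26591423 on the plus strand. All 23 genes matched a mature sequence, and the 29 mature sequences had 29 different seeds, so no seed was shared.

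**Figure D4:**
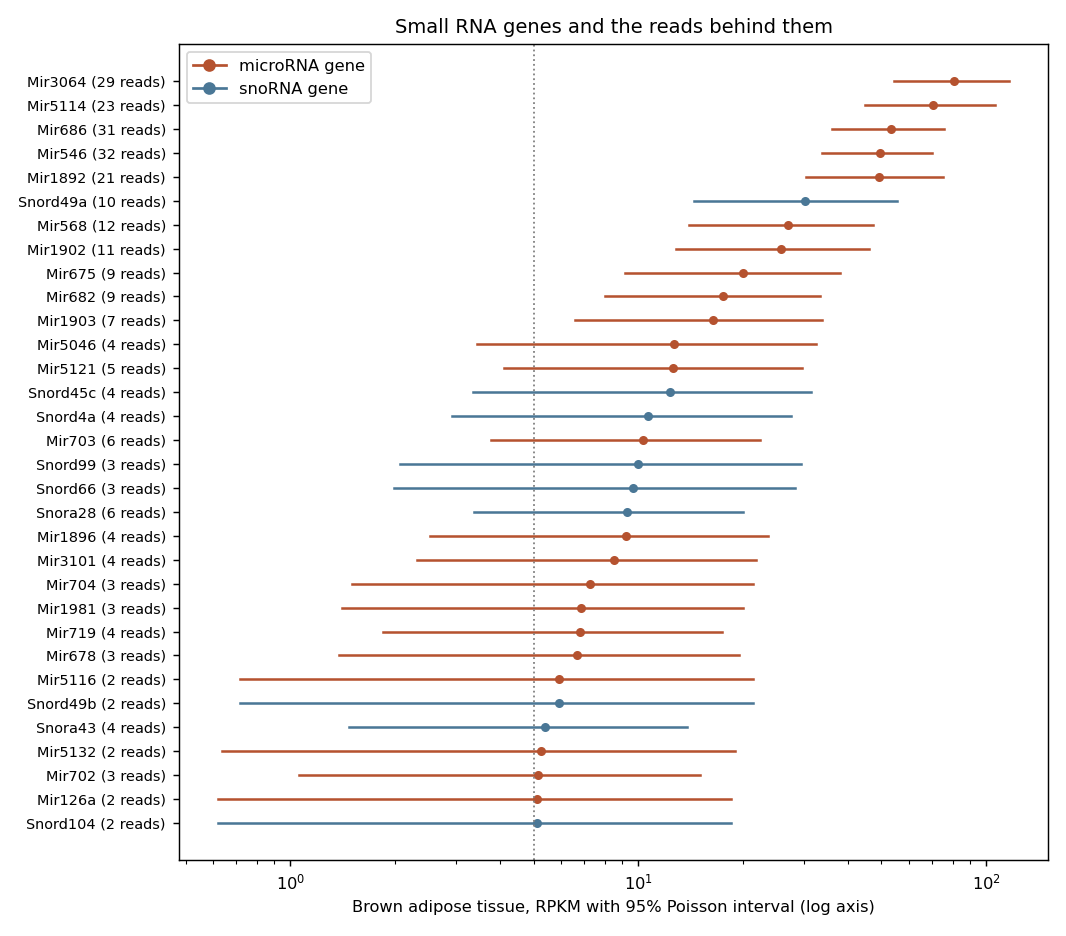
Level of 23 microRNA genes (orange) and 9 small nucleolar RNA genes (blue) without a culture entry in RPKM (log axis), with exact 95% Poisson intervals from the estimated reads given beside each name; the dotted line is the limit of 5 RPKM. Genes with 2 reads have intervals from below 1 to about 20 RPKM, which include the limit.

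The lists, families and hand-assigned roles together covered 420 of the 630 genes, and 210 were on none. Among the latter were Swi5, a recombination factor, at 122 RPKM, Ginm1, a membrane glycoprotein, at 115, Cnbp, a nucleic acid-binding zinc finger protein, at 107, Cops9, a subunit of the COP9 signalosome, at 106, Akr1a1, an aldehyde reductase, at 70.3, Ppa1, a pyrophosphatase, at 62.7, and Clic5, a chloride intracellular channel protein, at 47.9. The neurotrophin receptors Ntrk3 and Ntrk2 were at 40.1 and 28.6 RPKM. These receptors and Clic5 were chosen after their values were seen.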

How the data were processed

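RNA was poly(A)-selected, per the labels' protocols. The culture values are gene FPKM as the authors deposited them by symbol, and the tissue values are RPKM that the authors deposited for 29082 RefSeq transcripts. The submitters' processing notes name CASAVA 1.8.2, TopHat2 2.0.10, Cufflinks 1.0.3 and build mm9. The sources used here do not name the annotation and filter behind the culture gene list, or whether counting used strand.

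Transcripts were matched by accession to RefSeq gene records of GRCm38.p6, which gave names, gene types and overlaps, and 28436 (97.8%) matched. Symbols and older symbols were compared with the 11144 culture symbols. For 498 genes an older symbol gave the match. Depth of the tissue library was estimated from 31 receptor transcripts, which came out whole to within 0.02 of a read at 0.187 RPKM per read on 1 kb. Of 97 small RNA transcripts 94 were whole within 0.02. Read counts of small RNA genes without a culture entry were given where whole within 0.05. Culture depth is unknown. Intervals cover counting error only, and the 3-read floor is 0.561 RPKM on 1 kb.

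Samples were grouped by title, each group with 1 library, so shares and values were described without tests. The members and the 40 gene lists were chosen with earlier results of these data known, and the 14 roles assigned by hand and the promoter motifs after values were seen. Genes to name were taken from the highest 30, the highest 6 of each list with 3 listed partners, and those nearest the limit. Not all of these are printed, and other partners and role examples were chosen after their values were seen. Promoter windows were found for 430 of the 630 genes. The 1 minimum, 10 minimum, summed transcripts, symbol rules and overlaps were tried as alternatives. The membership rule was tested on simulated data. Python 3.11.15, pandas 2.3.3, numpy 2.4.6, scipy 1.17.1 and matplotlib 3.10.9 were used. Of the 83 samples, 78 without RNA were not analysed here.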

Additional observations from a re-analysis of the deposited data

How the results depend on the processing

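The number of genes depended on the tissue minimum and on older symbols. It was 1588 at a minimum of 1 RPKM, 341 at 10 and 4136 for any value above 0, and 1128 when only current symbols were matched. These are 15.0%, 9.91%, 27.8% and 19.1% of the genes past each minimum. Summing transcripts gave 746, protein-coding transcripts alone 530, counting genes below 1 FPKM at day 7 as missing 668, and ignoring capitals 625. The last setting lost Ldhd, Sf3b3, Slc19a1, Slc52a2 and Trf to symbols of other genes. Of the alternatives added after seeing the data, leaving out older symbols that are another gene's current name gave 644, and leaving out genes that overlap another gave 427. Genes on cell type lists numbered 83, and 217 for any value above 0. Those on function lists numbered 61, and 99 at a minimum of 1, 35 at 10 and 140 for any value above 0. Genes that are not protein-coding numbered 99, and 384, 42 and 798 at these minima, 32 without overlapping genes and, by construction, 0 with protein-coding transcripts alone. In ribosome biogenesis 27 of 38 genes were missing at a minimum of 1 RPKM and 1 of 6 at 10. Macrophage and myeloid genes were missing in 21 of 27 (77.8%) at 1 and 3 of 3 at 10. For Schwann cell and nerve genes it was 6 of 11 (54.5%) and 1 of 2, and for class II and dendritic cell genes 3 of 6 (50%) and 3 of 4. Skeletal muscle held at 40 of 49 (81.6%) and 30 of 39 (76.9%), and endothelium at 22 of 34 (64.7%) and 12 of 20 (60%). With about 26.7 reads behind 5 RPKM on 1 kb, short genes near the limit are the least certain. No paired analysis was possible because each group had 1 library and no test was made, and no replicate could be left out.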

Other observations

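Of the 29082 tissue transcripts 646 matched no symbol, and 119 of these were at 5 RPKM or more, the highest at 590 RPKM. They entered no count of genes.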
